A study of Rattus norvegicus with 72 samples.

Results

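Cholesterol is made in liver cells by a chain of enzymes and is also taken up from lipoproteins, and the genes described here belong to that chain and to its sensor. The members were 8 named genes, Hmgcs1, Idi1, Fdps, Sqle, Lss, Cyp51, Dhcr7 and Insig1, and every probe set that carries one of these symbols in the platform annotation was taken. Of the 8 genes 7 were measured, by 10 of the 31099 probe sets on the array, which name 14217 genes by 1 symbol. Hmgcs1 was not matched to a probe set and has no value here. None of the members with values is an uptake gene, so uptake is described only from the other genes of the pathway.

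The study measured total RNA of primary rat hepatocytes on 72 arrays, in 24 groups of 3. Liver cells had been freed by collagenase perfusion in 2 steps, plated as a monolayer in William's E medium with serum, glucagon and antibiotics, and moved to serum-free medium with hydrocortisone and insulin before exposure. No strain or age of the rats and no vehicle for the controls is stated in the labels. The 3 genotoxic carcinogens were aflatoxin B1 (19 nM), 4-(methylnitrosamino)-1-(3-pyridyl)-1-butanone, called NNK (625 µM), and 2-nitrofluorene (78 µM). The 3 non-genotoxic carcinogens were methapyrilene hydrochloride (8.5 µM), piperonyl butoxide (13.4 µM) and Wy-14643 (250 µM), and the 2 non-carcinogens were nifedipine (156 µM) and clonidine hydrochloride (277 µM). Each compound was set against control cultures of the same 24 h or 72 h, which makes 16 comparisons. Aflatoxin B1, Wy-14643 and clonidine share 1 control group at each time, and 2-nitrofluorene, piperonyl butoxide and nifedipine share another, while NNK and methapyrilene each have their own. Differences between compounds that share controls are therefore not independent. The array titles also carry a D number, not explained in the labels, and the NNK set and the 2-nitrofluorene set have the same 3 D numbers, 7, 8 and 9. Between these sets, deviations from the group means correlated with r of 0.21 to 0.52 for arrays of the same D number and time and −0.41 to 0 for arrays of other D numbers. The control groups of these sets are therefore not separate in this respect, and only the fit with the D number as a replicate block takes it into account. Deviations in a group of 3 sum to 0, so the negative r follow in part from the positive ones. Serum-free culture with insulin is common to treated and control cells, and primary hepatocytes in a monolayer are known to lose liver functions with time, which limits them as a model of liver.

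Acetyl-CoA is built up to mevalonate and then to isoprenoid units, squalene, lanosterol and finally cholesterol. When sterols in the endoplasmic reticulum are low, SCAP carries the SREBP transcription factors to the Golgi, where they are cut and released to the nucleus, and many genes of the pathway are switched on together. INSIG1, itself an SREBP target, holds SCAP back when sterols are high. Hepatocytes carry out much of the body's cholesterol synthesis and turn cholesterol into bile acids.

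Promoters are shown for Cyp51, Idi1 and Dhcr7, the members called below in a comparison of a compound with its control, and for the sensor gene Insig1. They are the 250 bases before each gene's start in RefSeq on rat build GRCr8, written 5′ to 3′ on the gene's strand. Capitals mark matches on either strand to the CCAAT box (CCAAT) or the GC box (GGGCGG), sites of the kind that general promoter factors bind. Cyp51 lies at chr4:30991443-30991692 on the plus strand, Idi1 at chr17:66547525-66547774 on the minus strand, Dhcr7 at chr1:208444184-208444433 on the plus strand and Insig1 at chr4:8057770-8058019 on the minus strand.
Cyp51: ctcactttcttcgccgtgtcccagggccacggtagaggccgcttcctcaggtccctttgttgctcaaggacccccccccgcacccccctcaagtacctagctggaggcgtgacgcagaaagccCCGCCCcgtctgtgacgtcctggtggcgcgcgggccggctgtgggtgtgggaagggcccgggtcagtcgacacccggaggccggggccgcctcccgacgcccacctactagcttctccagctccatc
Idi1: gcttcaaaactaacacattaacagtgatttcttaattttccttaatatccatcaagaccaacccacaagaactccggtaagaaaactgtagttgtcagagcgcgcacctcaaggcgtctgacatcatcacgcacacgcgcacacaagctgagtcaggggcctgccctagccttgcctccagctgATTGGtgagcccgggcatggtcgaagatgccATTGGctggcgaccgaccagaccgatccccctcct
Dhcr7: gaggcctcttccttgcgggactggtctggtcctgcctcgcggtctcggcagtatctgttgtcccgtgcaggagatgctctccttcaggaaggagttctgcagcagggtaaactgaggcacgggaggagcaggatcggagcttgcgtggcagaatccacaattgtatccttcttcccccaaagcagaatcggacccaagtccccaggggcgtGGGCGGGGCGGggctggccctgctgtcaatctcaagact
Insig1: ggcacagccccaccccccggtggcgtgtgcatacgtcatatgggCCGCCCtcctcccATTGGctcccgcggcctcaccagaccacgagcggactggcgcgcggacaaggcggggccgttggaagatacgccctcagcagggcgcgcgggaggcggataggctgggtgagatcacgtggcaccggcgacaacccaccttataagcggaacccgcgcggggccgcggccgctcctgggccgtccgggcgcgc
A promoter entry was matched for 7 of the 8 members, all but Sqle. CCAAT was found in 5 of the 7 and in 34% of all 33469 promoters of this length, and GGGCGG in 6 of the 7 and in 30.5% of all. The sterol element core, searched as TCACNCCAC on both strands, was in 0 of the 7 and in 0.974% of all promoters. Beside so low a share, 0 of 7 does not set the members apart. The search covered 1 form of the element in 250 bases, so it cannot show that sterol elements are absent. In Dhcr7 the 2 GC box matches overlap.

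The values are MAS5 intensities, in arbitrary units on a linear scale, and differences are given on the log2 scale with the SE of the fit. A call is an adjusted p under 0.05 from limma's moderated test with Benjamini-Hochberg adjustment over the 18048 probe sets kept, as everywhere below. All 10 member probe sets were kept and none had a value at the floor of 3.117. Each gene is given by its probe set of highest mean, and the others where they differ. Because 3 independent experiments are stated for each compound but not whether they used separate animals, the p-values measure the spread between these arrays. In bulk RNA, fewer hepatocytes and less RNA per hepatocyte cannot be told apart.

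Some arrays stood apart. In the aflatoxin B1, Wy-14643 and clonidine set, the 4 pairs of arrays with D number 3 in their titles ran against their time labels. A score over 3937 probe sets that separates 72 h from 24 h differed by −0.66 to −0.35 in these 4 pairs, against 0.35 to 1.23 in 23 other pairs and 0.70 to 1.39 in the 9 pairs that set the score. A further measure, the log2 ratio of 3′ to 5′ actin probes, was 1.84 to 2.71 on 10 arrays and 0.36 to 1.11 on the others. Among those 10 were the 8 arrays of D number 3, and the remaining ones were of aflatoxin B1 (24 h, replicate 1, and 72 h, replicate 2). They are called the high actin arrays below, and the main results on that set are given with and without them. Hepatocyte markers summed to 18570 to 44900 per array over 7 genes, against 356.3 to 2706 for 15 macrophage markers, 149 to 4409 for 10 stellate cell markers, 56.8 to 288 for 7 endothelial markers and 199.6 to 1108 for 6 bile duct markers. No list had a marker at the floor on all 72 arrays, and the hepatocyte markers in all groups were high.

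**Figure D1:**
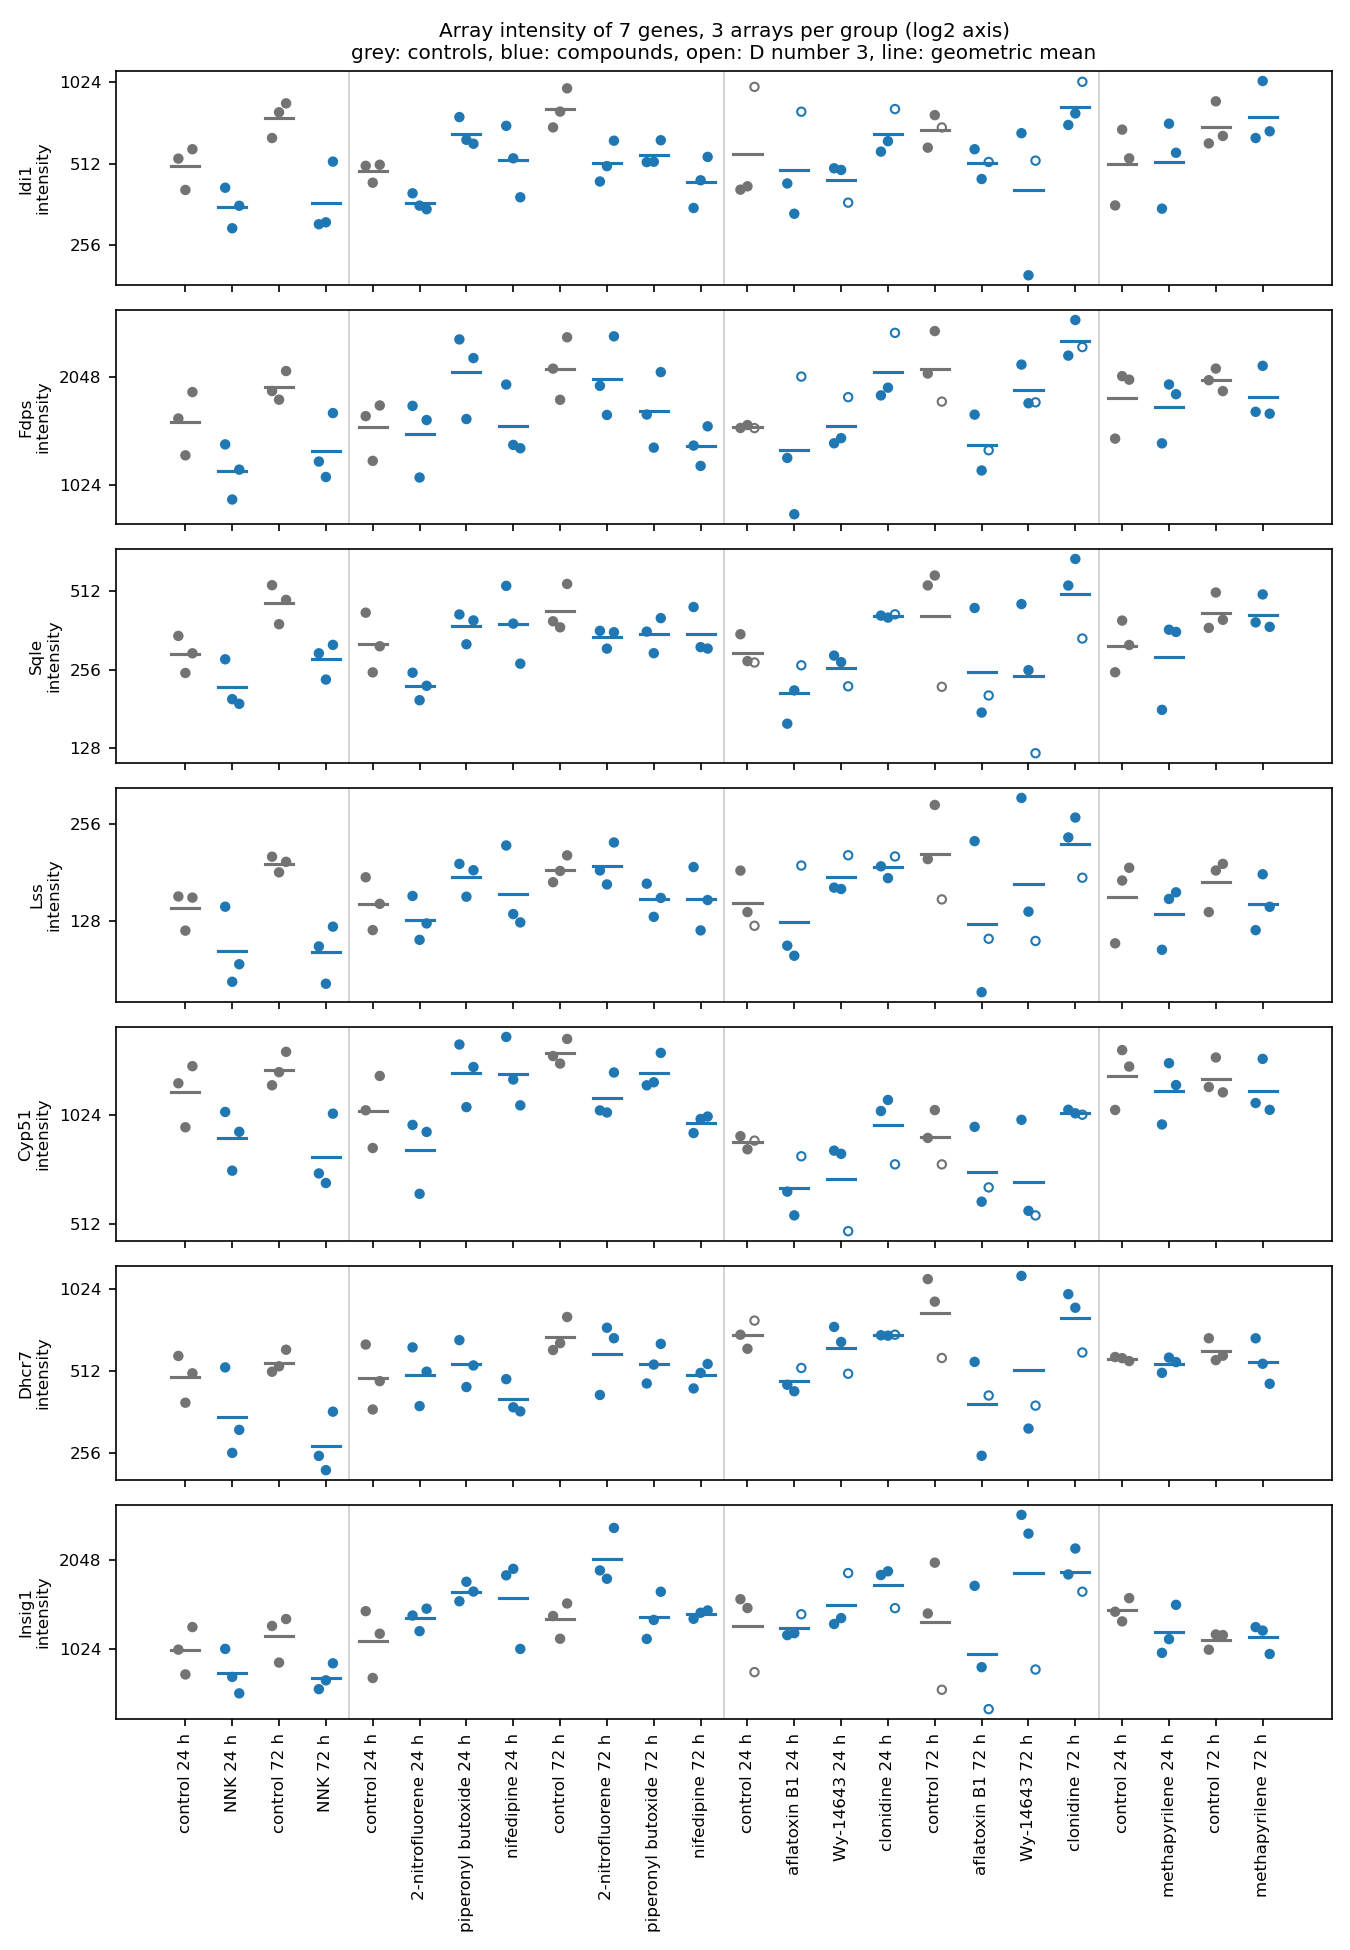
Each panel shows 1 gene, with the MAS5 intensity of every array on a log2 axis and the 24 groups along the other axis, ordered by control set and time. Grey points are controls, blue points are compounds, open points are arrays of D number 3 and lines are geometric means of 3 arrays. At 72 h all 3 NNK arrays lie below their 3 controls in every panel.

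Every member was readily measured in untreated and treated cells. Fdps, the farnesyl diphosphate synthase, ranged from 846.9 to 2950 with a median of 1701 over the 72 arrays, and its group means ran from 1129 at 24 h of NNK to 2591 at 72 h of clonidine. Idi1, which isomerises isopentenyl diphosphate, ranged from 198.3 to 1033 with a median of 538.9, between group means of 356.9 (NNK at 24 h) and 840.7 (clonidine at 72 h). Sqle, the squalene epoxidase, ranged from 122.7 to 680.9 with a median of 341.4, between 213.1 (aflatoxin B1 at 24 h) and 519 (clonidine at 72 h). For these 3 genes, and for Lss, the highest group mean was that of clonidine at 72 h. Lss, which closes squalene epoxide into lanosterol, ranged from 77.3 to 308.1 with a median of 155.3, between 104.1 (NNK at 72 h) and 225.1 (clonidine at 72 h). Cyp51, the lanosterol demethylase, ranged from 487.5 to 1694 with a median of 1050, between 652 (aflatoxin B1 at 24 h) and 1533 (the control of the 2-nitrofluorene set at 72 h). Dhcr7, which makes the last reduction to cholesterol, ranged from 221.5 to 1143 with a median of 547.8. Its lowest group mean was 278.1, at 72 h of NNK, and its highest was 867.5, in the 72 h control shared by aflatoxin B1. Insig1 ranged from 636.4 to 2925 with a median of 1293, between 818.1 (NNK at 72 h) and 2106 (Wy-14643 at 72 h). The mean at 72 h of 2-nitrofluorene was close to the highest, at 2101. The lowest group mean was that of an NNK or aflatoxin B1 group for each of the 7 genes. Of the 23 neighbouring pairs of groups in each order, the gap in mean log2 level exceeded the larger SD of the pair in 2 for Cyp51, 1 for Dhcr7 and 0 for each of the other genes. Levels of different probe sets cannot be set against each other.

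NNK, a tobacco nitrosamine that is activated to DNA-alkylating products, gave the most member calls. At 72 h Cyp51, Idi1 and Dhcr7 fell, to 0.57, 0.49 and 0.50 of the control, and the other 4 members were lower without passing the test. That is 3 of 7 called lower, beside 3.32% of all probe sets called in this comparison and 1.65% called lower. For all 7 members the 3 treated arrays lay below the 3 controls, as they did for 15.1% of all probe sets. The median difference of the members was −0.80, against −0.02 for all probe sets.

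Cyp51 was at 706, 664 and 1036 after 72 h of NNK and at 1243, 1352 and 1540 in the controls. The difference was −0.80 ± 0.23 (95% interval −1.26 to −0.35, adjusted p = 0.031, limma), and the second probe set of Cyp51 differed by −0.86 ± 0.22 (adjusted p = 0.0187). Both probe sets therefore passed. Idi1 was at 305.9, 310.9 and 520.9 with NNK and at 636.6, 792.1 and 854.6 without, a difference of −1.04 ± 0.31 (adjusted p = 0.0459). Its second probe set was lower by nearly the same amount but was not called (−1.07 ± 0.38, adjusted p = 0.107). Dhcr7 was at 249.8, 221.5 and 363 with NNK and at 508.6, 532.4 and 612.5 without, a difference of −1.01 ± 0.29 (adjusted p = 0.0374). NNK replicate 3 was the highest treated array for all 3 genes, and no treated array reached a control.

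Lss was at 107.1, 82.1 and 123.2 with NNK and at 202.8, 181.4 and 195.5 in the controls (−0.91 ± 0.29, adjusted p = 0.0735). Sqle was at 296.2, 235 and 319.1 against 540.3, 383 and 474.6 (−0.71 ± 0.33, adjusted p = 0.259). The middle and late enzymes thus lay in the same direction as the called ones, with wider errors relative to the difference. Fdps was at 1188, 1076 and 1622 against 1869, 1768 and 2125 (−0.59 ± 0.24, adjusted p = 0.191). Insig1 was at 744.5, 797.9 and 912 against 1223, 917.3 and 1291 (−0.47 ± 0.30, adjusted p = 0.476). Insig1 had the smallest difference of the 7, and its highest treated array was just below the lowest control. With replicate numbers as a block, which pair these samples, 5 members were called, with Fdps (adjusted p = 0.0484) and Lss (adjusted p = 0.0179) added. The block called 7.18% of all probe sets in this comparison.

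The calls depended on single arrays. The count of 3 became 1 without control replicate 1, where Cyp51 alone passed, and 0 without control replicate 2, control replicate 3, NNK replicate 1 or NNK replicate 2. Without NNK replicate 3 it remained 3. Over these 6 refits Cyp51 ranged from −1.0 to −0.68, Idi1 from −1.29 to −0.91 and Dhcr7 from −1.22 to −0.87, with adjusted p of at most 0.199, 0.218 and 0.213. Macrophage markers summed to 1040 to 2311 with NNK and 945.8 to 2270 in its controls, and 0 of 14 were called. Hepatocyte markers summed to 23010 to 29570 against 19290 to 37120, with 0 of 7 called.

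At 24 h of NNK all 7 members were lower by 0.26 to 0.51 on the log2 scale, and 0 were called (0.92% of all probe sets). Idi1 differed by −0.51 ± 0.31 and Insig1 by −0.26 ± 0.30. The treated and control arrays overlapped for every member at 24 h. The test of the change in effect from 24 h to 72 h called 0 members, with differences of −0.54 to −0.13 and 0 at an unadjusted p under 0.05 (0.0277% of all probe sets were called). Set against the mean effect of the other 7 compounds at 72 h, all 7 NNK effects were lower, by 0.30 to 0.70 on the log2 scale, and 0 were called by limma, beside 0.299% of all probe sets called, with 3 at an unadjusted p under 0.05, as for 7.77% of all probe sets. In that contrast 13 of 14 macrophage markers and 8 of 9 stellate cell markers were higher (medians of 0.67 and 0.33, 0 called), and their part in the result was not tested. The lower levels can therefore not be called particular to NNK.

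**Figure D2:**
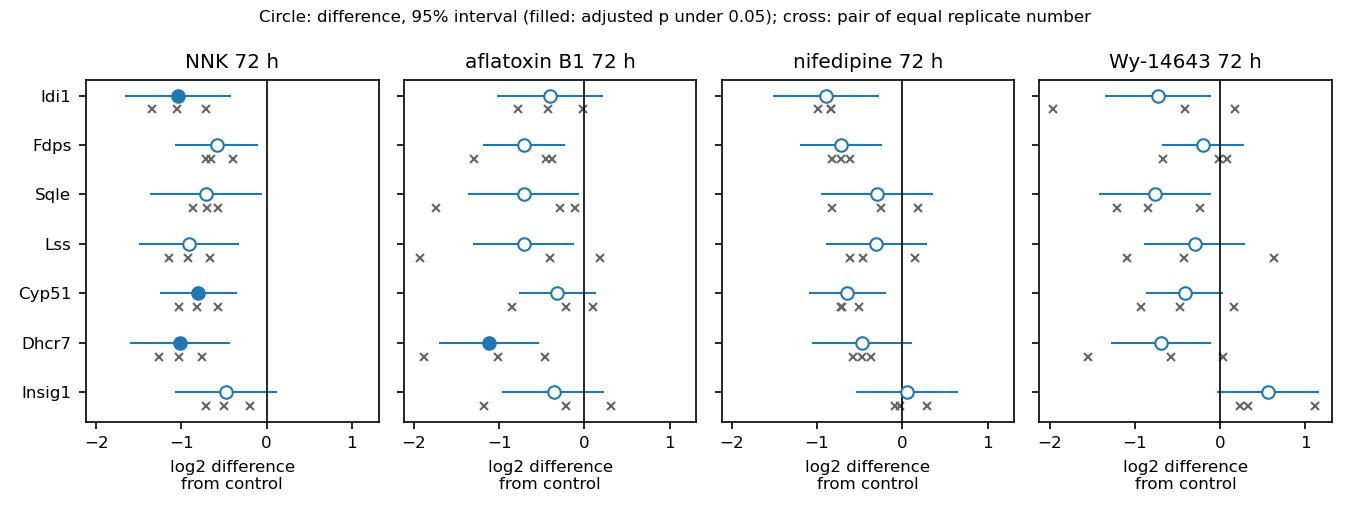
Circles are log2 differences from control at 72 h with their 95% intervals, filled where the adjusted p was under 0.05, and crosses are the differences of arrays with the same replicate number. The 7 genes lie left of 0 for NNK and aflatoxin B1, and Insig1 lies right of 0 for nifedipine and Wy-14643.

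Aflatoxin B1, a mould toxin whose epoxide binds DNA, gave 1 call. Dhcr7 fell at 72 h to 0.46 of its control, and the other 6 members were lower but not called, which is 1 of 7 called lower, beside 4.91% of all probe sets called and 2.13% called lower. Dhcr7 was at 552.6, 250.1 and 416.1 with aflatoxin B1 and at 1112, 919.3 and 571.2 in the controls. The difference was −1.11 ± 0.29 (adjusted p = 0.0133), and the highest treated array lay just under the lowest control, which is of D number 3. Without the D number 3 arrays the difference was −1.44 (adjusted p = 0.00392), while leaving out the high actin arrays gave −0.87 with no call (adjusted p = 0.347). The call was also lost without control replicate 1 (−0.91, adjusted p = 0.116), control replicate 2 (−1.05, adjusted p = 0.0825) and aflatoxin B1 replicate 2 (−0.80, adjusted p = 0.345).

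The other members spread widely among the 3 aflatoxin B1 arrays at 72 h. Lss was at 226.6, 77.3 and 113 against 199.3, 293.1 and 149.6 (−0.71 ± 0.29, adjusted p = 0.181). Sqle was at 441.8, 175.6 and 204.2 against 539.2, 588.4 and 220.5 (−0.71 ± 0.33, adjusted p = 0.248). In both genes replicate 1 was the highest treated array and replicate 2 the lowest. Fdps was at 1606, 1122 and 1277 against 2092, 2747 and 1746 (−0.71 ± 0.24, adjusted p = 0.0806), with no overlap. All treated arrays lay below all controls for 5.73% of all probe sets. Idi1 (−0.41 ± 0.31), Insig1 (−0.36 ± 0.30) and Cyp51 (−0.32 ± 0.23) had smaller differences. Replicate 2 has the high actin ratio named above. Without the high actin arrays Lss was at −0.09, Cyp51 at −0.03 and Insig1 at 0.03. In that refit 0 members were called, beside 2.23% of all probe sets. Without the D number 3 arrays Dhcr7, Fdps (−0.84, adjusted p = 0.0353) and Sqle (−1.02, adjusted p = 0.0309) were called, beside 12.9% of all probe sets. The count was 3 without control replicate 3, 4 without aflatoxin B1 replicate 1 and 0 without control replicate 1, control replicate 2 or aflatoxin B1 replicate 2. Macrophage markers summed to 1734 to 2389 with aflatoxin B1 and 839.7 to 1409 in the controls, with 13 of 14 higher, a median of 1.04 and 0 called. Stellate cell markers were higher in 8 of 9 (median 0.83, 0 called), and the part of these markers in the result was not tested.

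At 24 h of aflatoxin B1 all 7 members were again lower, with a median of −0.21, and 0 were called beside 3.33% of all probe sets. Dhcr7 was at 455.5, 431.3 and 525 against 695.1, 617.5 and 783.2 (−0.57 ± 0.29, adjusted p = 0.389), with no overlap. Sqle was at 159.2, 213.6 and 266.5 against 350.5, 276.6 and 273.2 (−0.52 ± 0.33, adjusted p = 0.533), and its highest treated array was just below the lowest control. All treated arrays lay below all controls for 6.57% of all probe sets. Without D number 3 the members' median was −0.56, with Sqle at −0.76, Lss at −0.61, Dhcr7 and Cyp51 at −0.56 and Fdps at −0.55, and without the high actin arrays it was −0.60, with 0 called in both. Of all probe sets, 3.98% and 1.8% were called in these refits. Insig1 was at −0.01 ± 0.30. The difference between the 72 h and 24 h effects was not called by limma for any member (0 of 7, beside 0% of all probe sets, and 0 at an unadjusted p under 0.05). It was negative for 6 of 7 members, and positive for 6 of 7 without the high actin arrays. At 24 h 12 of 14 macrophage markers were higher with aflatoxin B1 (median 0.69, sums of 1521 to 2706 against 799.7 to 1614). Stellate cell markers were higher in 8 of 9 (median 0.28). None of these was called, and their part in the result was not tested.

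Nifedipine, a calcium channel blocker used here as a non-carcinogen, lowered the second probe set of Idi1 at 72 h. That probe set was at 74.6, 83.9 and 114.4 with nifedipine and at 157.1, 249.7 and 257.8 in the controls, a difference of −1.27 ± 0.38 (adjusted p = 0.0452). The brighter Idi1 probe set, at 351.2, 444.5 and 542.2 against 696.7, 796.9 and 971, lay at −0.89 ± 0.31 and was not called (adjusted p = 0.0976). By the brighter probe sets 0 of 7 members were called, beside 3.18% of all probe sets.

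Cyp51 was at 914.6, 1001 and 1017 after 72 h of nifedipine and at 1499, 1428 and 1672 in the controls (−0.65 ± 0.23, adjusted p = 0.0969). Fdps was at 1317, 1155 and 1490 against 2158, 1767 and 2639 (−0.72 ± 0.24, adjusted p = 0.0844). Treated and control arrays did not overlap for Idi1, Fdps, Cyp51 and Dhcr7 (−0.47 ± 0.29). All treated arrays lay below all controls for 20.2% of all probe sets. Sqle (−0.30 ± 0.33) and Lss (−0.30 ± 0.29) overlapped, and Insig1 was at 1294, 1356 and 1381 against 1322, 1106 and 1459 (0.06 ± 0.30). With the replicate block, which pairs these arrays, Fdps (adjusted p = 0.0138), Cyp51 (0.021) and Idi1 (0.0261) were called, beside 7.78% of all probe sets. The same 3 genes were called, at the same differences, when the D number 3 or the high actin arrays of the other set were left out. In these refits 7.38% and 9.45% of all probe sets were called. Of 14 macrophage markers 3 fell with nifedipine (sums of 546.5 to 1201 against 942.2 to 2069), and 7 of 9 stellate cell markers were lower (median −1.0, 0 called). Also lower were 4 of 5 endothelial markers (median −0.53) and both bile duct markers kept (−1.56), while all 7 hepatocyte markers were higher (0.24), with 0 called. The part of these markers in the result was not tested.

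At 24 h of nifedipine 6 of 7 members were higher and 0 were called, beside 0.46% of all probe sets. The median was 0.13, with Insig1 at 0.49 ± 0.30 and Dhcr7 at −0.25 ± 0.29. All 7 members had a lower effect at 72 h than at 24 h, by 0.21 to 1.02 on the log2 scale. Part of that change is a rise of all 7 members in the controls of this set, by 0.24 to 0.76. The test of that change called 0 members by limma (beside 0.116% of all probe sets), with 3 at an unadjusted p under 0.05, as for 7.4% of all probe sets.

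With Wy-14643, an activator of PPARα, Insig1 was higher and the 6 enzymes lower than control at 72 h, but no member was called (0 of 7, beside 7.31% of all probe sets). Sqle was at 457.3, 255.3 and 122.7 against 539.2, 588.4 and 220.5 (−0.76 ± 0.33, adjusted p = 0.154). Idi1 was at 663.2, 198.3 and 525.2 against 586.5, 773.2 and 696.3 (−0.73 ± 0.31, adjusted p = 0.149). Dhcr7 was at 1143, 314.7 and 382 against 1112, 919.3 and 571.2 (−0.70 ± 0.29, adjusted p = 0.144). In the last 2 genes replicate 1 was as high as its control and replicate 2 was the lowest array, so the groups overlapped. Insig1 was at 2925, 2525 and 868.6 against 1349, 2010 and 741 (0.56 ± 0.30, adjusted p = 0.28). Without the D number 3 arrays Sqle was at −0.72, Idi1 at −0.89 and Dhcr7 at −0.75, none called, and the values without the high actin arrays were the same. For Insig1 the low array in each group was the one of D number 3. Without D number 3 Insig1 differed by 0.72 (adjusted p = 0.0596). Without the high actin arrays the same difference was called (adjusted p = 0.0362), beside 12.4% of all probe sets. With the replicate block, which pairs these arrays, Sqle alone was called (adjusted p = 0.0475), beside 13.2% of all probe sets. The count was 4 without Wy-14643 replicate 1, 2 without control replicate 3 and 1 without Wy-14643 replicate 3. Of 14 macrophage markers 5 fell (sums of 487.5 to 795.2 against 839.7 to 1409), as did 2 of 7 hepatocyte markers. All 9 stellate cell markers were lower (median −1.07, sums of 149 to 963.7 against 515.8 to 1949), as were 4 of 5 endothelial markers (median −0.59), with 0 called in both lists, and the part of these markers in the result was not tested. At 24 h the members' median was −0.16, with 0 called beside 0.0443% of all probe sets. Idi1 at 24 h was at 492.2, 485.3 and 367.5 against 410.5, 422.2 and 983.1, where the high control is of D number 3, so that its difference turned from −0.32 to 0.23 without those arrays. That of Insig1 turned from 0.24 to −0.20.

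Among the other compounds 2-nitrofluorene, a nitroarene that is reduced to a DNA-binding product, gave the largest difference of Insig1. At 72 h Insig1 was at 1891, 1772 and 2641 against 1322, 1106 and 1459 (0.68 ± 0.30, adjusted p = 0.497). All treated arrays lay above all controls, as for 8.74% of all probe sets. Of the 7 members 0 were called, beside 0.809% of all probe sets. The high actin arrays are in another set. Without them Insig1 was called at the same difference (adjusted p = 0.0451), beside 2.29% of all probe sets. That refit also changed the filter, the spread and the number of probe sets tested. Idi1 went the other way, at 440, 501.3 and 622.2 against 696.7, 796.9 and 971 (−0.66 ± 0.31, adjusted p = 0.556), and Cyp51 (−0.42 ± 0.23) and Sqle (−0.34 ± 0.33) also lay below every control array. Of all probe sets, 13.6% had all treated arrays below all controls. Lss (0.04 ± 0.29) and Fdps (−0.10 ± 0.24) stayed near their controls. Of 14 macrophage markers 13 were lower (median −1.07, sums of 573.2 to 1273 against 942.2 to 2069), as were 8 of 9 stellate cell markers (median −0.40, sums of 397.1 to 1198 against 820 to 2044). None of these was called, and their part in the result was not tested. At 24 h 0 members were called (1.13% of all probe sets), with Sqle at 249.6, 195.9 and 222.4 against 423.9, 250.3 and 315.2 (−0.54 ± 0.33, adjusted p = 0.601).

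Clonidine, an α2-adrenergic agonist used as a non-carcinogen, was the compound with the highest levels of several members. At 24 h 6 of 7 members were higher, with a median of 0.37 and 0 called (0.0166% of all probe sets). Fdps was at 1817, 1910 and 2716 against 1474, 1502 and 1473 (0.51 ± 0.24, adjusted p = 0.689), and Sqle at 413, 405.9 and 417.9 against 350.5, 276.6 and 273.2 (0.47 ± 0.33, adjusted p = 0.903). The groups did not overlap in either gene, and 3.77% of all probe sets had all treated arrays above all controls. At 72 h 6 of 7 were again higher, with a median of 0.26 and 0 called (0.0332%), and Insig1 was at 1833, 2247 and 1601 against 1349, 2010 and 741 (0.57 ± 0.30, adjusted p = 1). Without D number 3 the 24 h difference of Fdps was 0.32 and the 72 h difference of Insig1 was 0.30, and the 72 h median was 0.12. Against the mean effect of the other 7 compounds at 72 h all 7 members were higher with clonidine, by 0.49 to 0.88 on the log2 scale (0.21 to 0.77 without D number 3), and 0 were called by limma, beside 0.00554% of all probe sets called, with 4 at an unadjusted p under 0.05, as for 4.23% of all probe sets.

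Piperonyl butoxide, an insecticide synergist that inhibits cytochrome P450 enzymes, had all 7 members higher at 24 h and 6 of 7 lower at 72 h. At 24 h Insig1 was at 1485, 1730 and 1602 against 1374, 812.8 and 1151 (0.56 ± 0.30, adjusted p = 1), and Idi1 at 760.6, 626.9 and 606.3 against 502.7, 435.4 and 507.2 (0.46 ± 0.31, adjusted p = 1), both without overlap. Fdps differed by 0.51 ± 0.24 with overlap. All treated arrays lay above all controls for 6.24% of all probe sets. None of the 7 members was called (0 beside 0.0887% of all probe sets). At 72 h Idi1 was at 518.7, 520.3 and 624.6, below all controls (−0.56 ± 0.31, adjusted p = 1), with 0 members called beside 0% of all probe sets. All treated arrays lay below all controls for 5.1% of all probe sets. The change in effect from 24 h to 72 h was downward for all 7 members, by 0.51 to 1.02 on the log2 scale, and 0 were called by limma, beside 0% of all probe sets, with 2 at an unadjusted p under 0.05, as for 1.31% of all probe sets. The controls themselves, shared with nifedipine, were higher at 72 h for all 7 members, by 0.24 to 0.76, and this rise is part of the change.

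Methapyrilene, an antihistamine that is a hepatocarcinogen in rats, gave small member differences. By the brighter probe sets, the 7 differences lay between −0.25 and 0.03 at 24 h and between −0.22 and 0.12 at 72 h, while the second Lss probe set was at 0.51 at 24 h (not called). No member and no probe set was called at either time (0 of 7, beside 0%, at both), and treated and control arrays overlapped for every member. Replicate 1 was the lowest array of Idi1, Sqle, Cyp51 and Lss in both the treated and the control group at 24 h.

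**Figure D3:**
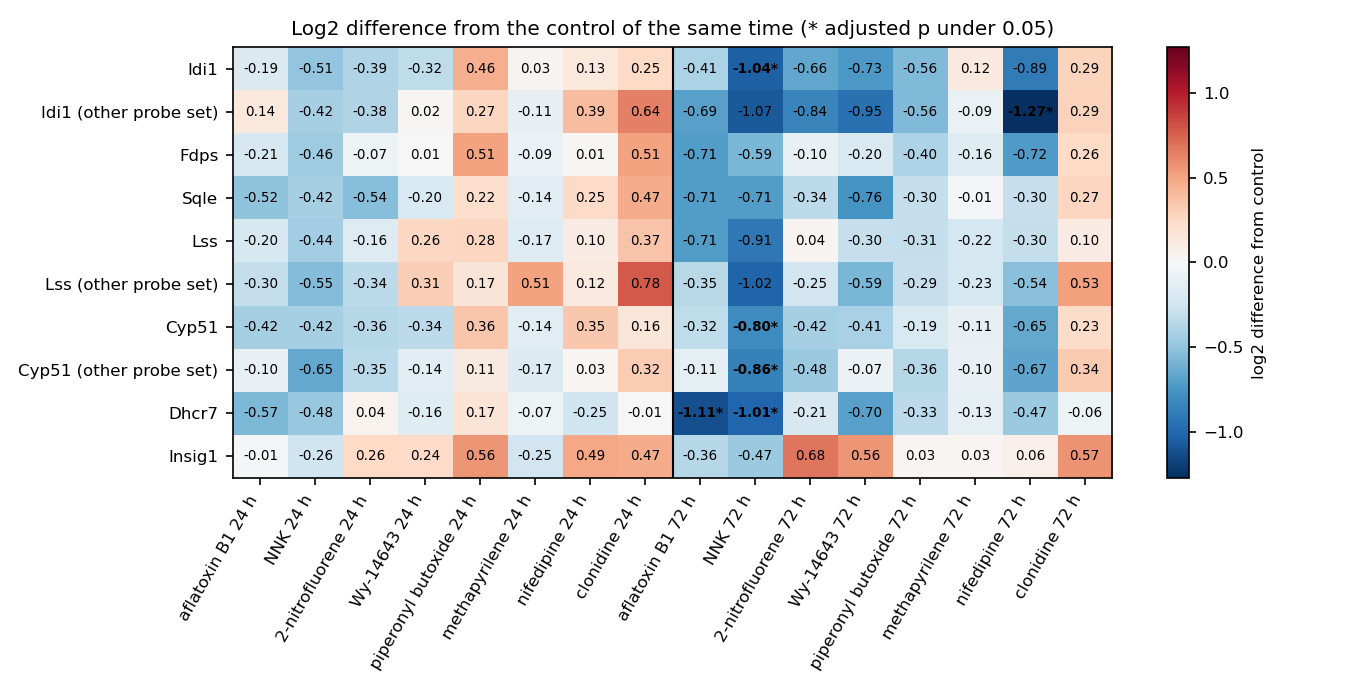
Each cell gives the log2 difference from the control of the same time for 1 probe set (rows, 10 probe sets of 7 genes) and 1 comparison (columns, 24 h left of the line and 72 h right of it); an asterisk marks an adjusted p under 0.05. Calls are in the aflatoxin B1, NNK and nifedipine columns at 72 h, and clonidine is higher than control in most rows.

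Over the 16 comparisons and 7 genes, 4 of 112 differences were called, beside 0% to 7.31% of all probe sets in a comparison. Of the 56 at 72 h, 43 were negative, and for 19 all treated arrays lay below all controls, while 1 had all arrays above. Of the 56 at 24 h, 31 were negative, with 6 and 4 without overlap below and above. Over all probe sets, the shares without overlap differed by comparison. They were 3.35% to 20.2% below and 3.66% to 13.6% above at 72 h. At 24 h they were 4.36% to 12.5% below and 3.52% to 11.4% above. Dhcr7 was below its control in 8 of 8 comparisons at 72 h, from −1.11 with aflatoxin B1 to −0.06 with clonidine. Insig1 was the exception among the members, below its control in 2 of 8 at 72 h. These counts share control arrays and are a description.

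By class, the effects of the 6 carcinogens were set against those of the 2 non-carcinogens over both times. Sqle and Cyp51 were lower with the carcinogens, which is 2 of 7 members called beside 7.33% of all probe sets, and 3.37% called lower. Sqle averaged −0.37 from its controls with the carcinogens and 0.17 with the non-carcinogens, a difference of −0.54 ± 0.14 (adjusted p = 0.0115). Cyp51 averaged −0.30 and 0.02, a difference of −0.32 ± 0.10 (adjusted p = 0.0351). The other 5 members were also lower, by 0.18 (Dhcr7) to 0.32 (Insig1) on the log2 scale. The Cyp51 call was lost with the second probe set (−0.28, adjusted p = 0.0803) and without clonidine replicate 1 or 2 at 24 h (adjusted p = 0.0686 and 0.082), nifedipine replicate 1 at 24 h (0.0963), clonidine replicate 1 or 2 at 72 h (0.0556 and 0.0509) or nifedipine replicate 2 or 3 at 72 h (0.0555 and 0.0591). The Sqle call was kept in every refit run, including those without the D number 3 arrays (−0.52, adjusted p = 0.00599) and without the high actin arrays (−0.45, adjusted p = 0.0122). The 2 non-carcinogens differed from each other, with Sqle at −0.30 for nifedipine and 0.27 for clonidine at 72 h. Of 14 macrophage markers 11 were higher with the carcinogens (median 0.29), as were 7 of 9 stellate cell markers (0.33), with 0 called, and their part in the result was not tested. The test rests on the spread between arrays and not on the spread between compounds of a class.

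The genotoxic carcinogens, set against the non-genotoxic ones, had lower effects on all 7 members, by 0.22 (Insig1) to 0.37 (Idi1) on the log2 scale. None was called by limma (0 of 7, beside 5.03% of all probe sets), though 6 had an unadjusted p under 0.05, as did 16% of all probe sets. In the same contrast 13 of 14 macrophage markers (median 0.63) and 8 of 9 stellate cell markers (0.41) were higher, with 0 called, and their part in the result was not tested. Dhcr7 averaged −0.56 from its controls with the genotoxic and −0.20 with the non-genotoxic compounds (−0.36 ± 0.14, adjusted p = 0.145). Cyp51 averaged −0.46 and −0.14 (−0.32 ± 0.11, adjusted p = 0.0692). With the replicate block Cyp51 (adjusted p = 0.0114) and Fdps (0.0246) were called, and without the D number 3 arrays 5 members were called, Cyp51 (0.00923), Sqle (0.0212), Dhcr7 (0.0355), Idi1 (0.0402) and Fdps (0.0404). The shares of all probe sets called under these settings were not counted for this contrast. The member count was 2 without aflatoxin B1 replicate 3 at 24 h and at most 1 without any other single array.

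In the controls alone, Idi1, Sqle and Fdps rose from 24 h to 72 h, which is 3 of 7 called beside 15.9% of all probe sets, and 9.71% called higher. Over the 4 control groups Idi1 rose by 0.53 ± 0.16 (adjusted p = 0.0142), Sqle by 0.49 ± 0.16 (adjusted p = 0.0327) and Fdps by 0.39 ± 0.12 (adjusted p = 0.0183). In the controls of NNK, Sqle was at 345.4, 249 and 296.3 at 24 h and at 540.3, 383 and 474.6 at 72 h, without overlap. Lss was higher by 0.37 ± 0.15 (adjusted p = 0.0807) and was called with the replicate block (adjusted p = 0.0285) and without the D number 3 arrays (0.39, adjusted p = 0.0387). Dhcr7 (0.26 ± 0.15), Cyp51 (0.19 ± 0.11) and Insig1 (0.03 ± 0.15) were not called. Insig1 differed by less than its SE. The Sqle call was lost in 9 of 24 refits without 1 control array, with differences of 0.42 to 0.47 and adjusted p of at most 0.0775. The array left out was replicate 2 of the aflatoxin B1, 2-nitrofluorene or NNK controls or replicate 1 of the methapyrilene controls at 24 h, or replicate 1 or 2 of the aflatoxin B1 controls, replicate 3 of the 2-nitrofluorene, replicate 1 of the NNK or replicate 2 of the methapyrilene controls at 72 h. Without the D number 3 arrays, whose times run against their labels, Idi1 rose by 0.63, Sqle by 0.58 and Fdps by 0.43. Markers of other cells moved over the same time. Of 5 endothelial markers 4 fell (median −1.49, sums of 103.9 to 275 at 24 h and 58.7 to 238.1 at 72 h) and both bile duct markers kept rose (median 2.05, sums of 262.7 to 543.2 and 372.1 to 1027). Of 7 hepatocyte markers 3 fell (median −0.19), and of 9 stellate cell markers all were higher with 1 called (median 0.37). Their part in the result was not tested.

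The members followed one another over the 24 group means to different degrees. With the mean of the other members, Pearson's r was 0.91 for Fdps, 0.90 for Lss, 0.81 for Sqle, 0.81 for Idi1 and 0.75 for Dhcr7, and 0.51 for Insig1 and 0.47 for Cyp51. The group means share control sets, so these are descriptions without a test. The 2 probe sets of Idi1 correlated with r = 0.85 over the 72 arrays, those of Lss with 0.79 and those of Cyp51 with 0.62. Their differences from control had the same sign in 12 of 16 comparisons for Idi1, 14 of 16 for Lss and 16 of 16 for Cyp51, and the largest gap was for Lss at 24 h of methapyrilene (−0.17 and 0.51).

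The genes most like the members were chosen by their Pearson's r with the mean of the members' standardised levels over the 24 groups, among 10171 genes. They were Acat2 (0.91), Mettl15 (0.83), Fhit (0.81), Plcb1 (0.81), Myo1d (0.81), Vps13b (0.81), Mvd (0.80), Tmem163 (0.77), Exoc6b (0.77) and Fdft1 (0.76). Acat2 makes acetoacetyl-CoA, Mvd makes isopentenyl diphosphate and Fdft1 makes squalene, and these 3 are on the list of other synthesis enzymes.

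That list holds 16 other enzymes of cholesterol synthesis, of which 13 were measured. With NNK 2 of the 13 fell and 0 rose at 72 h, with a median of −0.49 beside −0.02 for all probe sets. They were Acat2 (−1.31 ± 0.33, adjusted p = 0.0138) and Hsd17b7, a sterol ketone reductase (−1.29 ± 0.30, adjusted p = 0.00616). Aflatoxin B1 lowered 2 at 72 h, Tm7sf2, a sterol reductase (−1.31 ± 0.32, adjusted p = 0.00612), and Nsdhl, a sterol dehydrogenase (−0.88 ± 0.25, adjusted p = 0.0275), with a median of −0.55. Neither was called without the high actin arrays (Tm7sf2 adjusted p = 0.0569, Nsdhl 0.156), and both were without the D number 3 arrays. The NNK calls were lost without control replicate 3 or NNK replicate 2, and that of Acat2 also without NNK replicate 1 (adjusted p of at most 0.139 and 0.148). The aflatoxin B1 calls were also lost without control replicate 1 or 2 or aflatoxin B1 replicate 2, and Nsdhl without replicate 3. With Wy-14643 Nsdhl alone fell at 72 h (−0.83 ± 0.25, adjusted p = 0.0317), which is 1 of 13 beside 7.31% of all probe sets, and the call was lost without control replicate 1 or 2 or Wy-14643 replicate 2 or 3 (adjusted p of at most 0.363). These shares over all probe sets were 3.32% for NNK and 4.91% for aflatoxin B1, and with nifedipine 0 of 13 were called, with a median of −0.52. In the controls Msmo1 (0.53 ± 0.15) and Acat2 (0.48 ± 0.17) rose with time and Pmvk fell (−0.36 ± 0.12), which is 3 of 13 beside 15.9% of all probe sets. The Acat2 call was lost in 13 and the Pmvk call in 10 of 24 refits without 1 control array, and the Msmo1 call in 0.

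Of 11 genes of uptake and intracellular transport 6 were measured and kept. Aflatoxin B1 gave 1 call at 24 h and 2 at 72 h, beside 3.33% and 4.91% of all probe sets. Npc2, which moves cholesterol out of lysosomes, rose with aflatoxin B1 at 24 h (0.98 ± 0.19, adjusted p = 0.000458) and at 72 h (0.86 ± 0.19, adjusted p = 0.00194), and Scarb1, the HDL receptor gene, fell at 72 h (−0.88 ± 0.27, adjusted p = 0.0398). Without the high actin arrays Npc2 was at 0.79 and 0.74 and Scarb1 at −0.72, and none of these was called (adjusted p = 0.0762, 0.0904 and 0.42). The 72 h calls were also lost without control replicate 2 or aflatoxin B1 replicate 2, and that of Scarb1 without control replicate 1, while the 24 h call of Npc2 was kept without each single array of its groups. With 72 h of Wy-14643 Lipa, the lysosomal acid lipase gene (0.64 ± 0.19, adjusted p = 0.0252), and Stard3, a sterol carrier (0.62 ± 0.16, adjusted p = 0.0125), rose, 2 of 6 beside 7.31% of all probe sets. Both were also called without the D number 3 or the high actin arrays, but Lipa was not without control replicate 2 or Wy-14643 replicate 1 or 3 (adjusted p of at most 0.164) and Stard3 not without control replicate 2 or Wy-14643 replicate 2 (at most 0.227). NNK and nifedipine gave 0 calls in this list at 72 h, beside 3.32% and 3.18% of all probe sets, with medians of −0.34 and 0.07.

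Of 8 sensing genes 0 were called at 72 h of NNK, aflatoxin B1, nifedipine or Wy-14643. Of all probe sets 3.32%, 4.91%, 3.18% and 7.31% were called in these comparisons. Srebf2, which encodes the SREBP of cholesterol genes, was at −0.47 ± 0.26 with NNK, −0.50 with aflatoxin B1, −0.22 with nifedipine and −0.63 with Wy-14643. Srebf1, which encodes the SREBP of fatty acid genes, fell with nifedipine at 24 h (−1.30 ± 0.28, adjusted p = 0.0116) and was at −0.76 at 72 h (adjusted p = 0.119). That 24 h call was 1 of 8, beside 0.46% of all probe sets. It was lost without control replicate 1 or 3 or nifedipine replicate 1 or 2 (adjusted p of at most 0.149). In the controls Srebf1 (−0.77 ± 0.14) and Nr1h3, the LXRα gene (−0.64 ± 0.11), fell from 24 h to 72 h. That is 2 of 8 called, beside 15.9% of all probe sets.

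**Figure D4:**
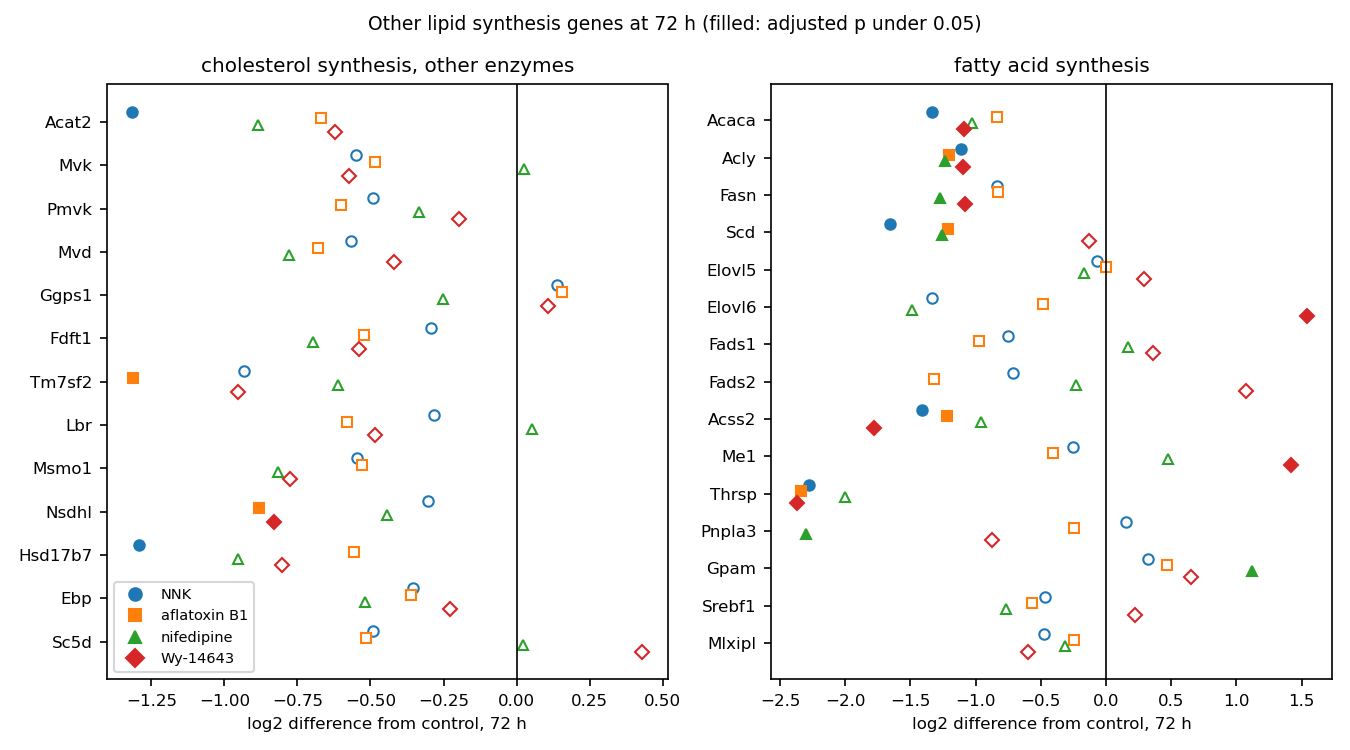
Points are log2 differences from control at 72 h for the kept genes of other cholesterol synthesis enzymes (left) and of fatty acid synthesis (right), 1 symbol per compound, filled where the adjusted p was under 0.05. Most points lie left of 0, and Wy-14643 has filled points on both sides in the right panel.

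Fatty acid synthesis is also driven by SREBP factors and is described for the same 4 comparisons, in which 3.32% (NNK), 4.91% (aflatoxin B1), 3.18% (nifedipine) and 7.31% (Wy-14643) of all probe sets were called. Of 15 genes kept 5 fell at 72 h of NNK. The largest changes were those of Thrsp, a lipogenic cofactor gene (−2.28 ± 0.67), Scd (−1.655) and Acss2 (−1.41). Acaca, the acetyl-CoA carboxylase gene (−1.34 ± 0.32), and Acly, the citrate lyase gene (−1.11 ± 0.24), also fell. The Thrsp call was lost without any single array but NNK replicate 3 (adjusted p of at most 0.293). The Acaca call was lost without control replicate 3 or NNK replicate 2. Those of Acly and Acss2 were lost without NNK replicate 2, and that of Scd without NNK replicate 1. After 72 h of aflatoxin B1 4 fell, Thrsp (−2.34), Acss2 (−1.22), Scd (−1.21 ± 0.32) and Acly (−1.20 ± 0.24). Without the high actin arrays Acly alone was called (−1.28, adjusted p = 0.0239), and Scd was at −0.50. The Acly call was kept without each single array. Those of Scd and Thrsp were lost without control replicate 1 or 2 or aflatoxin B1 replicate 2. That of Acss2 was lost without control replicate 2 or aflatoxin B1 replicate 2. After 72 h of nifedipine 4 fell, led by Pnpla3, a lipid droplet lipase gene (−2.30 ± 0.39), and Gpam rose (1.12 ± 0.31). The others that fell were Fasn (−1.27), Scd (−1.26) and Acly (−1.23). The Pnpla3 and Acly calls were kept without each single array. That of Gpam was lost without any but nifedipine replicate 2 (adjusted p of at most 0.164). Single arrays also ended the Fasn and Scd calls (adjusted p of at most 0.116 and 0.11). At 72 h of Wy-14643 5 fell and 2 rose. Thrsp (−2.37) and Acss2 (−1.78) fell most. The Acss2 call was kept without each single array, and that of Thrsp was lost without control replicate 2 or Wy-14643 replicate 2 or 3. Those that rose were Elovl6, a fatty acid elongase gene (1.54 ± 0.49), and Me1, the malic enzyme gene (1.42 ± 0.35). Without the D number 3 arrays Elovl6 was at 1.13 and Me1 at 1.70, both called, and both calls were lost without control replicate 3 or Wy-14643 replicate 1 or 2 (adjusted p of at most 0.255 and 0.113). The medians of the list were −0.75, −0.83, −0.96 and −0.13 for the 4 compounds.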

How the data were processed

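Biotin-labelled total RNA was hybridised to 72 rat arrays. Per the submitters' processing notes, MAS5 gave 1 intensity for each of 31099 probe sets, and the deposited intensity values are linear with a trimmed mean of about 100 (99.99) on every array. The MAS5 version is not given in the sources used here. No other normalization was applied. Precision is limited by having 3 arrays in a group. Lower values were set to 3.117 (20th percentile of the table), called the floor, before log2 was taken. After removal of 57 control probe sets, those whose mean log2 value reached the log2 of the overall median (19.74) in some group were kept (18048, 58.1%). A limma fit (version 3.58.1, R 4.3.3) on 24 group means, with 48 residual degrees of freedom and an intensity trend, gave the tests, and p-values were adjusted by Benjamini-Hochberg over all kept probe sets of a comparison. All groups share 1 estimate of spread per probe set, so arrays of one set also move the p-values of another.

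Symbols came from the platform annotation, which gives 1 symbol for 20826 probe sets, more than 1 for 436 and no symbol for 9780. The members, gene lists and tests were chosen with earlier results of these data known. Some genes of the lists are not reported here. The text names all members, Srebf1 and Srebf2, and the 10 genes most like the members. It also names called genes of the lists, among them those with the largest changes in the comparisons described. The replicate block is the D number of the titles, which follows the replicate number within a set. Replicate numbers were taken to pair samples where every pair's deviations from the group means correlated over 0.1. This held in 14 of 16 comparisons and not for aflatoxin B1 at 24 h or 72 h (r of −0.29 to 0.83 over all). For aflatoxin B1 r was −0.265, 0.673 and 0.274 at 24 h and 0.632, −0.286 and 0.546 at 72 h. The negative pairs hold the aflatoxin B1 arrays of high actin ratio outside D number 3. The alternatives were a floor of 16, no filter, quantile normalization, the replicate block, the other probe sets, and leaving out each array, the D number 3 arrays or the 10 arrays with an actin log2 ratio over 1.5. The fit was tested on simulated data. Promoters came from RefSeq on GRCr8.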

Additional observations from a re-analysis of the deposited data

How the results depend on the processing

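The counts of members called changed with the setting as follows. With the replicate block 5 members were called at 72 h of NNK, 3 at 72 h of nifedipine and 1 at 72 h of Wy-14643. Of all probe sets, 7.18%, 7.78% and 13.2% were then called in these comparisons. The block gave 2 for genotoxic against non-genotoxic carcinogens and 2 at 72 h of aflatoxin B1, whose numbers do not all pair the samples. For aflatoxin B1 at 72 h it called 8.5% of all probe sets. Without the D number 3 arrays 3 were called at 72 h of aflatoxin B1, 4 at 72 h of NNK and 3 at 72 h of nifedipine. The shares of all probe sets called were 12.9%, 7.33% and 7.38%. The same setting gave 5 for genotoxic against non-genotoxic, and 1 for aflatoxin B1 against the other compounds at 72 h. Without the high actin arrays the counts were 0 at 72 h of aflatoxin B1, 5 at 72 h of NNK, 1 at 72 h of 2-nitrofluorene, 1 at 72 h of Wy-14643, 3 at 72 h of nifedipine and 1 for genotoxic against non-genotoxic. For the single compounds, in the same order, 2.23%, 10.5%, 2.29%, 12.4% and 9.45% of all probe sets were called. Without the filter, where more probe sets are tested, 1 was called at 72 h of NNK and 1 for carcinogens against non-carcinogens. At 72 h of NNK that setting called 1.87% of all probe sets. For nifedipine at 72 h 1 was called with quantile normalization and 1 with every probe set counted, beside 2.63% and 3.18% of all probe sets. For the controls over time the count was 2 to 4 over these settings. Leaving out 1 array at a time gave 0 to 4 at 72 h of aflatoxin B1, 0 to 3 at 72 h of NNK, 0 to 4 at 72 h of Wy-14643, 0 to 2 and 0 to 1 for aflatoxin B1 and Wy-14643 against the others at 72 h, 1 to 2 for carcinogens, 0 to 2 for genotoxic carcinogens and 2 to 4 for the controls over time. Except where a setting left out the arrays themselves or tested more probe sets, the cause was not tested. Shares over all probe sets under these settings were not counted for contrasts of classes or compounds, for the controls or for single arrays left out. No called difference changed sign under any setting. With 3 arrays a group, differences as large as −0.91 (Lss) and −1.07 (the second Idi1 probe set) at 72 h of NNK were not called, so a missed call does not show equal levels.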

Other observations

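Of 8 kept genes that store, export or convert cholesterol 1 rose and 3 fell at 72 h of Wy-14643, beside 7.31% of all probe sets called. Soat1, which esterifies cholesterol for storage, rose by 2.96 ± 0.64 (adjusted p = 0.00162, limma). Its treated arrays all lay above all controls, as for 5.05% of all probe sets. Lcat, which esterifies cholesterol in plasma lipoproteins, fell by 1.91 (SE 0.44, adjusted p = 0.00298), and Cyp7a1, the rate-limiting enzyme of bile acid synthesis, fell by 3.15 (SE 0.93, adjusted p = 0.0252). Cyp27a1, of the other bile acid route, was lower by a smaller amount (−0.79 ± 0.25, adjusted p = 0.0369). Soat1 and Lcat were also called without the D number 3 arrays (3.63 and −2.32), Cyp7a1 and Cyp27a1 were not (adjusted p = 0.149 and 0.073), and the Soat1 call held without each single array of either group. Single arrays ended the other calls, Lcat without Wy-14643 replicate 2, Cyp7a1 without control replicate 2 or Wy-14643 replicate 2 or 3, and Cyp27a1 without control replicate 1 or 2 or Wy-14643 replicate 1 or 3 (adjusted p of at most 0.108, 0.177 and 0.267). With 2-nitrofluorene at 72 h Cyp8b1, the sterol hydroxylase of cholic acid synthesis, rose by 3.36 ± 0.74 (adjusted p = 0.00883), beside 0.809% of all probe sets called, and was not called without control replicate 2 or 2-nitrofluorene replicate 1 or 3 (adjusted p of at most 0.147). None of these genes was called at 72 h of NNK, aflatoxin B1 or nifedipine, beside 3.32%, 4.91% and 3.18% of all probe sets. In the controls Cyp7a1 (−1.42 ± 0.46), Lcat (−0.75 ± 0.22) and Abca1, a cholesterol exporter gene (−0.44 ± 0.15), fell from 24 h to 72 h, beside 15.9% of all probe sets called. In 24 refits without 1 control array the Cyp7a1 call was lost in 7, the Abca1 call in 14 and the Lcat call in 0. At 24 h of 2-nitrofluorene 3 fatty acid genes rose, Elovl6 (2.89 ± 0.49), Me1 (1.34 ± 0.35) and Gpam (1.17 ± 0.31), beside 1.13% of all probe sets called. The Elovl6 call was kept without each single array of the groups, and those of Me1 and Gpam were lost in 6 of 6 such refits (adjusted p of at most 0.246 and 0.294).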
